A study of Mus musculus with 25 samples.

Results

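A set of 33 MHC and antigen processing genes was taken by symbol from the 55385 genes of the deposited count tables, and their mRNA levels were compared across 5 murine melanoma cell lines. The 33 genes comprised 9 class I heavy chain genes and their relatives (H2-K1, H2-D1, H2-Q4, H2-Q6, H2-Q7, H2-T22, H2-T23, H2-T24 and H2-M3), the light chain gene B2m, 4 genes of peptide transport and loading (Tap1, Tap2, Tapbp and Tapbpl), 3 immunoproteasome subunits (Psmb8, Psmb9 and Psmb10) and 3 proteasome activator subunits (Psme1, Psme2 and Psme3). They further comprised the peptidase gene Erap1, 3 chaperone genes (Calr, Canx and Pdia3), the regulators Nlrc5 and Ciita, 6 class II pathway genes (Cd74, H2-Aa, H2-Ab1, H2-Eb1, H2-DMa and H2-DMb1) and Cd1d1. In the GENCODE annotation of GRCm38, 19 of the 33 genes lay on chromosome 17, between positions 33915899 and 37274484.

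Each line was represented by 5 cultures (25 RNA-seq libraries). WT31 came from Tyr∷Nras Q61K/°; INK4a-/- mice, RET from mice carrying a RET transgene under the metallothionein-I promoter, HCmel12 from a primary tumour of an HGF-CDK4(R24C) mouse and D4M from Tyr::CreER;BrafCA;Ptenlox/lox mice, in which Cre is placed under the tyrosinase promoter. B16F10 luc2 was a purchased, luciferase-marked line. No culture received a drug, and RNA was taken at 50% confluency. In the study's terms D4M and HCmel12 are LM-melanoma (low metastatic), and the other 3 lines are HIM-melanoma (high and intermediate metastatic). Each genotype was represented by 1 line, so that the p-values below describe the spread between cultures of these lines. The lines were also kept in different media: D4M alone was grown in Advanced DMEM/F-12 and HCmel12 in RPMI with further additives, so that for comparisons with either of them, and for HIM against LM, line and medium cannot be told apart. By the study's methods the HIM lines shared RPMI 1640.

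MHC class I molecules display peptides from the inside of a cell to CD8+ T cells. A heavy chain pairs with beta2-microglobulin (B2m) in the endoplasmic reticulum and receives a peptide that the proteasome has cut, the TAP transporter (Tap1 and Tap2) has carried into the lumen, Erap1 has trimmed, and tapasin (Tapbp) with calreticulin, calnexin and ERp57 (Calr, Canx and Pdia3) has helped to load. Interferon gamma raises most of these genes, swaps the catalytic proteasome subunits for their immunoproteasome counterparts and acts in part through the class I transactivator Nlrc5. Class II molecules present peptides to CD4+ T cells, depend on the transactivator Ciita, and are mainly made by professional antigen presenting cells. In tumours, low class I expression is a known way of escaping T cells, while natural killer cells recognise cells that lack class I.

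Several class I genes share stretches of their upstream sequence, and these are shown because the same genes differed widely between the lines. The 250 bases before the RefSeq start sites (GRCm38.p6) were searched on both strands for a kappa B site of 10 bases, the core of the interferon-stimulated response element (ISRE: GAAA, any 2 bases and GAAA again), TTCNNNGAA (the core of a STAT site), TGACGTCA (the cAMP response element) and CCAAT. Windows were found for 25 of the 33 genes. The kappa B site was present in H2-K1, H2-D1 and H2-Q6 and in 0.0852% of all 32851 windows. Matches to these motifs other than CCAAT are in capitals below; in the first 3 sequences the capitals are the kappa B site.

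H2-K1 (chr17:34000334-34000583, minus strand): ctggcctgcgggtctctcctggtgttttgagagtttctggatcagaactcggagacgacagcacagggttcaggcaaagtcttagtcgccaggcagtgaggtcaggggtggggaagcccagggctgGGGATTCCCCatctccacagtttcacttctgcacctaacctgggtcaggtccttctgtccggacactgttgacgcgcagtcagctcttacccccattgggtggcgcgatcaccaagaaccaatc
H2-D1 (chr17:35262844-35263093, plus strand): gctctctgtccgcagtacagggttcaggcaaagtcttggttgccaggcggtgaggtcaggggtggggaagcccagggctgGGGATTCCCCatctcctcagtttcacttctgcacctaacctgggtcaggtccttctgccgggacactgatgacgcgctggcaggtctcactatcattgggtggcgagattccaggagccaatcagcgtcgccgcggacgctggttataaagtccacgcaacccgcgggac
H2-Q6 (chr17:35424600-35424849, plus strand): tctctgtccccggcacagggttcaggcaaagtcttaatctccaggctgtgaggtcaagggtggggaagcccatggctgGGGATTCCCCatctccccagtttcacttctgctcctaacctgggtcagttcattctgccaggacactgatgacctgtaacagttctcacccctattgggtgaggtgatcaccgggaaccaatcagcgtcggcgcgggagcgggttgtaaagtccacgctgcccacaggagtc

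Over 80 bases around the kappa B site, H2-K1 and H2-D1 were identical at 79 bases (98.8%), while H2-Q6 matched each of them at 74 bases (92.5%). The ISRE core was found in B2m, H2-T22 and H2-T23 and in 2.98% of all windows. The windows of B2m, whose match starts 139 bases upstream, and of H2-T23, whose match lies on the other strand 124 to 115 bases upstream, read as follows.

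B2m (chr2:122147437-122147686, plus strand): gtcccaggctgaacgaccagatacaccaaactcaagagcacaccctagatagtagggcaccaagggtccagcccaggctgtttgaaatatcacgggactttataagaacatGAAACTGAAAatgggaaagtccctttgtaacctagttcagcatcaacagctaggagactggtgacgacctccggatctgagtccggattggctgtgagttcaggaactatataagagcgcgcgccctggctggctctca
H2-T23 (chr17:36032702-36032951, minus strand): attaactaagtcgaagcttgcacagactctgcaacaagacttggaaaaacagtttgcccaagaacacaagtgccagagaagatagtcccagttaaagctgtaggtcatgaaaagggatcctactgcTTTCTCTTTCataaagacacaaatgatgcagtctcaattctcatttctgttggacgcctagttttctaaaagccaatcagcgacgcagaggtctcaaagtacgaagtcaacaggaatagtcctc

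TTCNNNGAA was present in H2-M3 and Psmb8 (7.02% of all windows), TGACGTCA in H2-Aa (1.55%) and CCAAT in 20 of the 25 genes (33.8%). A match is a description of these letters, and binding was not measured. Tap1 and Psmb9 lie head to head, and their upstream windows share 225 bases, in capitals in the Tap1 window.

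Tap1 (chr17:34187306-34187555, plus strand): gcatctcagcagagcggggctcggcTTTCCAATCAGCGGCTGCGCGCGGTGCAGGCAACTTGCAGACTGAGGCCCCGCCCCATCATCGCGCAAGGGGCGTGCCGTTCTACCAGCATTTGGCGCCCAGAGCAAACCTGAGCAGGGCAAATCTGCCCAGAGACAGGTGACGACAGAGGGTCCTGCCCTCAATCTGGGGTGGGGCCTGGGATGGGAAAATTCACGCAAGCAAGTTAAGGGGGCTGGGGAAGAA

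The libraries held 24199083 to 25843286 estimated counts, so that 3 counts corresponded to 0.116 to 0.124 counts per 1000000 (CPM). CPM values below are library-scaled estimated counts, and TPM values, which also account for transcript length, were used to compare genes with each other. Correlations of log2 CPM over all tested genes were at least 0.9785 within a line and at most 0.9480 between lines. A total of 28 members passed the filter on low counts. Of these, 16 had a median of 10 counts or more in all 5 lines, 10 in 2 to 4 lines and 2 (H2-Q6 and H2-M3) in 1 line only. Members of the last 2 classes passed through the lines in which they were high. The filter itself took the libraries of all lines together. Below, the lines a member passed through are those in which its median was 10 counts or more. Counts over the 28 are therefore descriptions, and so are comparisons of these members with a line under that median. Ciita, Cd74, H2-Aa, H2-Ab1 and H2-Eb1 did not pass.

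The D4M libraries stood apart. In these, a list of 7 melanocyte genes (Tyr, Tyrp1, Dct, Pmel, Mlana, Mitf and Sox10) summed to 5.84 to 53.6 CPM against 12323 to 30003 CPM in the other lines, and a list of 6 fibroblast genes summed to 607 to 1183 CPM (at most 92.6 CPM in any other library). This sum came from Col1a1, Col1a2, Col3a1 and Pdgfra, since Dcn was at 0.301 ± 0.146 CPM in D4M and Lum had 0 counts in all 5 D4M libraries. The labelled melanoma type was therefore not borne out by these markers in D4M, where 3 of the 7 had a mean under 1 CPM, or 6 of the 7 without replicate 1. That library alone held the sum of 53.6 CPM, with Tyrp1 at 24.3 CPM, while the other 4 summed to 5.84 to 11.1 CPM. A list of 15 leukocyte genes summed to 76.8 to 123 CPM in D4M and to at most 31.4 CPM elsewhere. In D4M, 3 of the 15 had a mean of at least 1 CPM: Laptm5 reached 55.9 to 87.8 CPM, Cd53 11.6 to 31.4 CPM and Cd68 2.88 to 14.2 CPM. Cd53 had 0 counts in the 20 libraries of the other lines, Laptm5 at most 16.8 CPM and Cd68 at most 5.27 CPM. By contrast, Ptprc, Adgre1, Lyz2, Cd3e, Ms4a1, Tyrobp and Coro1a had at most 3 counts in every D4M library. A list of 5 endothelial genes summed to 25.9 to 39.4 CPM in HCmel12 and to at most 2.01 CPM elsewhere. In HCmel12 this was almost entirely Kdr (25.8 to 39.1 CPM), whereas Cdh5 and Emcn had 0 counts in all 5 libraries and Pecam1 (0.11 ± 0.063 CPM) and Tek (0.0982 ± 0.0546 CPM) were near 0. The part of these genes in the member levels was not tested. HCmel12 replicate 4 also differed from its line, as described further on. In bulk RNA, fewer cells making a gene and less RNA per cell cannot be told apart.

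D4M carried the highest levels of most class I genes. In 16 members, all 5 D4M libraries lay above the 20 libraries of the other lines in TMM-scaled log2 CPM, against 16.8% of all genes tested: H2-K1, H2-D1, H2-Q4, H2-Q7, H2-T22, H2-T23, H2-M3, B2m, Tap1, Tap2, Tapbp, Psmb8, Psmb9, Erap1, Nlrc5 and H2-DMa. HCmel12 was above all other lines in Psmb10 and Psme1 (6.9% of genes), B16F10 luc2 in Psme3 (6.27%) and RET in H2-DMb1 (5.19%). No member had its 5 WT31 libraries above all others (9.88%). B16F10 luc2 lay below every other line in H2-K1, H2-T22, Tapbp, Psme1 and Psme2 (4.79%), WT31 in H2-D1, Psmb10 and Canx (7.42%) and RET in H2-DMa (3.34%). With CPM of library totals, the scale of the values printed below, the D4M count was 15 members (13.3% of genes), since Erap1 overlapped with HCmel12. On that scale Psmb10 of WT31 overlapped with D4M, which left H2-D1 and Canx as lowest in WT31 (4.98%). Conversely, H2-T24 was then above all other lines in WT31 (12.1%) and Psme2 in HCmel12 (7.3%), and Pdia3 was below all others in RET (2.51%) and Psme3 in D4M (16.3%).

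**Figure D1:**
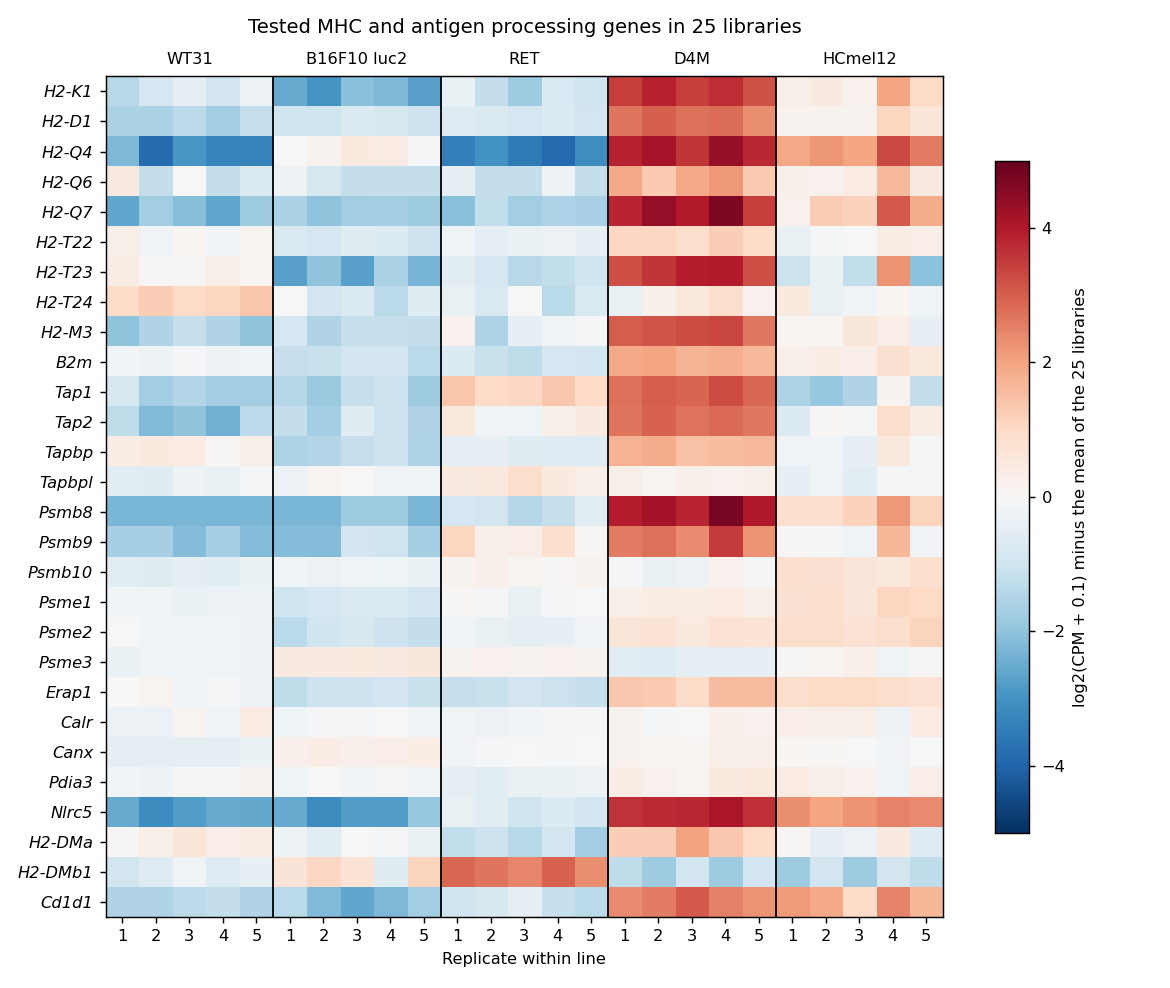
Levels of the 28 tested members in 25 libraries, as log2(CPM + 0.1) minus the mean of all libraries (colour, log2 units); columns are replicates 1 to 5 within each line and rows are genes. The D4M columns are red for most class I genes and for H2-DMa, the 15 members in which D4M lay above all other lines in CPM among them, while Calr, Canx, Pdia3 and Psme3 are nearly even.

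Compared with D4M, 27 of the 28 members differed significantly in WT31 (76.1% of genes), 27 in B16F10 luc2 (77.7%) and 26 in RET (77.1%) by limma on voom-transformed counts. Nearly all of these were lower than in D4M: 25 in WT31 (38.6% of genes), 25 in B16F10 luc2 (38.9%) and 24 in RET (38.3%). The exceptions were 2 members in each line (37.5%, 38.8% and 38.8% of genes): H2-DMb1 in all 3, with H2-T24 in WT31 and Psme3 in B16F10 luc2 and RET. The comparison with HCmel12 gave 23 members for WT31 (70.4%), 25 for B16F10 luc2 (69.1%) and 22 for RET (67.2%). Lower levels made up 20 of these for WT31 (34.3%), 22 for B16F10 luc2 (33.8%) and 19 for RET (33.3%), and 3 were higher in each (36.1%, 35.3% and 34%). The median log2 fold change of the members was -1.92 for WT31, -3.11 for B16F10 luc2 and -2.60 for RET against D4M, and -1.04, -1.47 and -0.77 against HCmel12, with medians of all genes between -0.01 and 0.01. These 6 comparisons share libraries, so that they are given side by side only.

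Between D4M and HCmel12, 24 members differed (72.5% of genes), 21 being higher in D4M (36.8%) and 3, Psmb10, Psme1 and Psme3, lower (35.7%), with a member median of 1.53. Among the HIM lines, 18 members (64.3%) differed between WT31 and B16F10 luc2 (72.8% of genes), 20 (71.4%) between WT31 and RET (73.2% of genes) and 19 (67.9%) between B16F10 luc2 and RET (51.5% of genes). WT31 was higher than B16F10 luc2 in 10 (36.4%) and lower in 8 (36.4%), and higher than RET in 8 (36.8%) and lower in 12 (36.4%). B16F10 luc2 was higher than RET in 5 (25.2%) and lower in 14 (26.2%). The member medians were -0.05, -0.28 and -0.49 in this order. When a 2-fold change was also required, the members that differed from D4M were 19 in WT31 (36.7% of genes), 22 in B16F10 luc2 (39.8%) and 21 in RET (39.2%), and those that differed from HCmel12 were 17 (30%), 18 (28.1%) and 14 (26.6%). Between D4M and HCmel12 16 remained (35.4%), between WT31 and B16F10 luc2 6 (31.4%), between WT31 and RET 10 (31.2%) and between B16F10 luc2 and RET 10 (14.3%). Since WT31 had 0 Psmb8 counts, its fitted fold changes are no bounds. The medians of WT31 against D4M or HCmel12 are the same with Psmb8 at its bound, as they must be, since it stays below them.

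HIM-melanoma was then compared to LM-melanoma. A total of 24 of the 28 members were lower in HIM-melanoma (39.9% of genes) and 2, Psme3 and H2-DMb1, were higher (39.2%), 26 in all (79.1%). A 2-fold change was reached by 21 of them (29.3%). The member median was -1.80 on the log2 scale and that of all genes -0.00. In 11 members (B2m, Cd1d1, Erap1, H2-D1, H2-K1, H2-Q4, H2-Q7, Nlrc5, Psmb8, Psme1 and Psme2) all 15 HIM libraries lay below all 10 LM libraries in TMM-scaled log2 CPM, against 4.15% of genes (the same 11 with CPM of library totals, 3.21%), and in none did they lie above (3.87%). A stricter reading asked for a significant difference in the same direction in each of the 6 pairs of an HIM and an LM line. By this reading 14 members were lower (6.4% of genes): the 11 above without exception, together with H2-Q6, Calr and Pdia3. Calr fell out with scaling to library size alone or with no filter on low counts, which left 13 in either case. It also fell out when any of 9 of the 25 libraries was left out. With TPM, Calr and Pdia3 fell out, and with each pair of lines fitted alone Calr and H2-Q6 did, leaving 12 in each case. When only genes with at least 10 counts in every library were kept, 8 remained, since Cd1d1, H2-Q4, H2-Q6, H2-Q7, Nlrc5 and Psmb8 were not tested, and H2-M3 joined without RET replicate 1 (15 members). Among the members counted here, H2-Q6, H2-Q7, H2-M3, Psmb8 and Cd1d1 passed the filter on low counts through LM lines only and H2-DMb1 through HIM lines only, so that their places in these counts are no support. H2-DMb1 was higher in all 6 pairs (6.53%), and Canx, H2-T24, Psme3, Tap1, Tapbp and Tapbpl went both ways (49.2%). The test takes cultures as replicates. With the 5 line means as units, 3 against 2, none of the 28 members and none of the 15247 genes passed the adjusted threshold in limma, whereas 13 members and 1225 genes had an unadjusted p under 0.05.

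**Figure D2:**
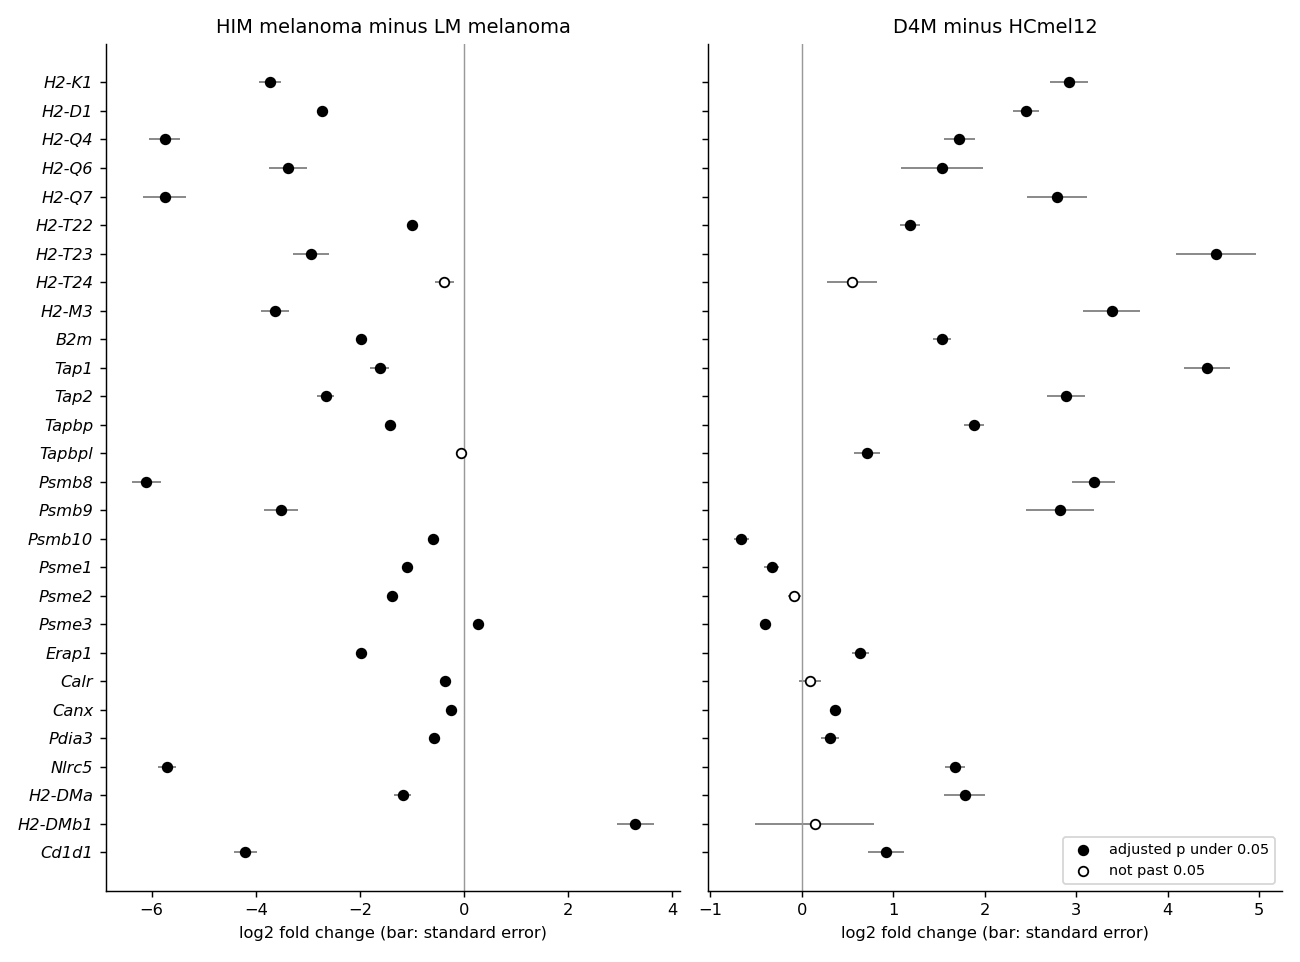
Log2 fold changes of the 28 tested members with standard errors for HIM minus LM melanoma (left) and D4M minus HCmel12 (right); filled points passed an adjusted p of 0.05 in limma and open points did not. On the left 24 filled points lie below 0 and 2 above, and on the right 21 lie above 0 and 3 below.

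The classical heavy chains H2-K1 (chr17:33996017-34000347) and H2-D1 (chr17:35262730-35267499), which present peptides to CD8+ T cells, were both highest in D4M and second highest in HCmel12. H2-K1 was at 141, 185, 141, 168 and 118 CPM in the D4M cultures and at 15.7, 17.6, 14.9, 51.3 and 25.8 CPM in HCmel12. In WT31 the values were 4.92, 7.22, 9.14, 6.6 and 10.4 CPM and in RET 10.1, 5.6, 3.66, 7.63 and 6.39 CPM. B16F10 luc2 had only 2.17, 1.6, 2.93, 2.61 and 1.85 CPM. The D4M cultures thus lay above all others, the B16F10 luc2 cultures below all others, and WT31 and RET overlapped. The log2 fold change of HIM against LM melanoma was -3.72 (SE 0.21, adjusted p = 1.3e-14) and that of D4M against HCmel12 2.92 (SE 0.21, adjusted p = 2e-12). WT31 and RET did not differ significantly (adjusted p = 0.63 in limma).

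H2-D1 was at 422, 518, 442, 446 and 324 CPM in D4M and at 72.8, 73.6, 73.2, 137 and 100 CPM in HCmel12. RET had 41.9, 39.3, 35.9, 41 and 33.7 CPM, B16F10 luc2 32.4, 32.7, 39.1, 37.5 and 31.8 CPM and WT31 21.9, 21.8, 26.2, 19.4 and 29 CPM. Here WT31 was the lowest line, and RET did not differ significantly from B16F10 luc2 (adjusted p = 0.66 in limma). The HIM against LM log2 fold change was -2.73 (SE 0.10, adjusted p = 7.7e-19), and D4M exceeded HCmel12 by 2.45 (SE 0.14, adjusted p = 9.6e-15). The ratio of H2-D1 to H2-K1 within a library, in TPM, was 10.1 ± 3.62 (SD, n = 5) in B16F10 luc2, ranging from 6.91 to 15.7, but 1.46 ± 0.132 (n = 4) in D4M and 1.9 ± 0.669 in WT31 (1.44 to 3.08). Of the 31-base sequences of the H2-K1 transcripts, 22.8% also occur in other genes, and 26.9% of those of H2-D1, in each case largely in other class I genes, so that the division of counts among them is uncertain.

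**Figure D3:**
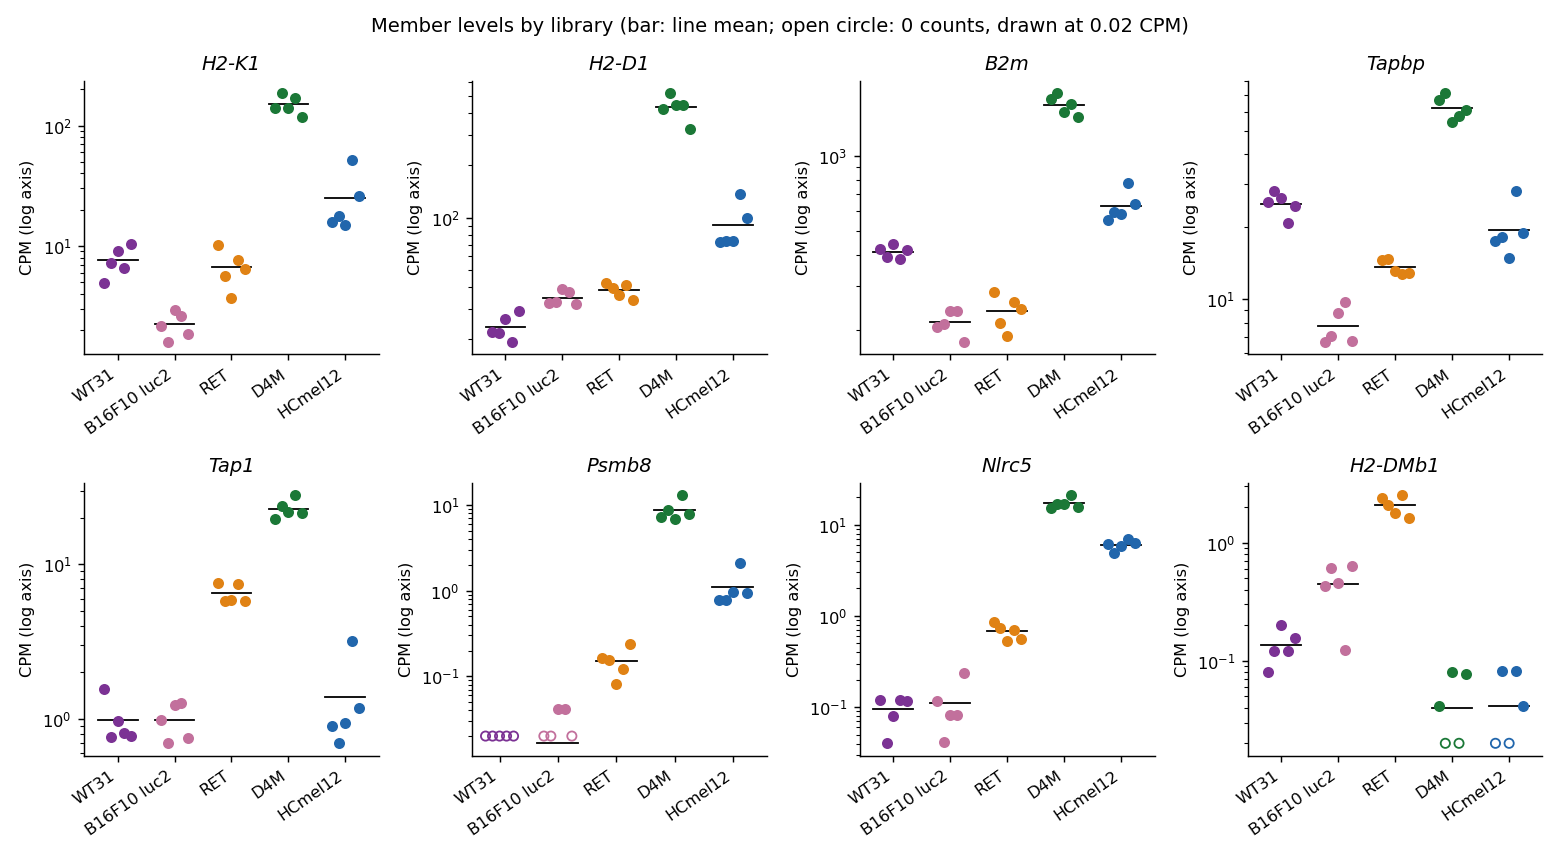
Levels of 8 members by library on log axes (CPM), grouped by line; points are the 5 cultures, bars the line means and open circles libraries with 0 counts, drawn at 0.02 CPM. D4M is the highest line in all panels but H2-DMb1, where RET is, and WT31 has 0 Psmb8 counts in all 5 libraries.

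The remaining 7 genes of this class are less polymorphic relatives. In the Q region, H2-Q4 (chr17:35379617-35385290) was at 37.2, 45, 31.2, 53.7 and 35.9 CPM in D4M and at 9.79, 12, 10.1, 25.5 and 15.8 CPM in HCmel12. B16F10 luc2 had 2.53, 2.85, 3.54, 3.34 and 2.4 CPM, whereas WT31 (0.22 ± 0.141 CPM, SD, n = 5) and RET (0.153 ± 0.0588 CPM) did not exceed 0.45 CPM. B16F10 luc2 thus lay above the other HIM lines, with WT31 minus B16F10 luc2 at -3.86 (SE 0.61, adjusted p = 3.3e-06). H2-Q7 (chr17:35439155-35443773) was at 8.55, 12.6, 9.34, 15.4 and 6.64 CPM in D4M and 0.611, 1.39, 1.26, 5.02 and 2.1 CPM in HCmel12, whereas no HIM library exceeded 0.157 CPM. H2-Q6 (chr17:35424850-35430055) was low throughout, at 0.736, 0.464, 0.736, 0.91 and 0.457 CPM in D4M, 0.171, 0.165, 0.204, 0.592 and 0.211 CPM in HCmel12 and at most 0.208 CPM in an HIM library. H2-Q7 left a gap between LM and HIM libraries, while for H2-Q6 WT31 and HCmel12 overlapped. The H2-Q7 gap is a description, since this gene passed the filter through the LM lines only. D4M exceeded HCmel12 by 1.72 (SE 0.17, adjusted p = 1.2e-09) for H2-Q4, by 2.79 (SE 0.33, adjusted p = 2e-08) for H2-Q7 and by 1.53 for H2-Q6 on the log2 scale. The H2-Q6 value is a description, since this gene passed the filter through D4M only. The corresponding HIM against LM values were -5.75, -5.75 and -3.38, which rest on lines with few counts and depend on the 0.5 that voom adds. These genes share 53% (H2-Q4), 39.2% (H2-Q7) and 51.8% (H2-Q6) of their 31-base sequences with other genes, so that the split between them is uncertain.

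H2-T23 (chr17:36029773-36032855) encodes Qa-1, which displays class I leader peptides to natural killer cell receptors. It was at 8.59, 11.1, 13.9, 14.3 and 8.48 CPM in D4M and at 1.1, 0.874, 0.876, 1.04 and 0.91 CPM in WT31. RET had 0.529, 0.418, 0.254, 0.294 and 0.363 CPM and B16F10 luc2 0.0402, 0.13, 0.0426, 0.213 and 0.0849 CPM. The HCmel12 cultures were at 0.335, 0.634, 0.293, 4.28 and 0.125 CPM, with replicate 4 far above the others. Without that library the log2 fold change of D4M against HCmel12 went from 4.53 to 5.28, and that of B16F10 luc2 against HCmel12 from -2.32 to -1.57. H2-T23 passed the filter through WT31 and D4M only, so that comparisons involving the other lines are descriptions. With all libraries D4M exceeded HCmel12 (4.53, SE 0.44, adjusted p = 6e-10), and WT31 and HCmel12 did not differ significantly (0.81, adjusted p = 0.19 in limma). Without HCmel12 replicate 4, however, WT31 lay above every HCmel12 library and the difference passed (1.55, SE 0.44, adjusted p = 0.0031 in limma), that of RET against HCmel12 went from -0.53 to 0.22 (not significant in either case), and that of B16F10 luc2 against RET (-1.79) went from an adjusted p of 0.051 to 0.0065. H2-M3 (chr17:37270220-37274484), which presents N-formylated peptides, was at 3.18, 3.45, 3.79, 4.02 and 2.41 CPM in D4M and 0.327, 0.327, 0.489, 0.412 and 0.207 CPM in HCmel12. RET held 0.369, 0.0391, 0.205, 0.245 and 0.277 CPM, and WT31 and B16F10 luc2 at most 3 counts per library. The log2 fold change of D4M against HCmel12 was 3.39, likewise a description of a gene that passed the filter through D4M only. H2-T22, a ligand of some gamma delta T cells, spanned 8.81 to 42.8 CPM over all libraries, and H2-T24 0.285 to 2.44 CPM. H2-T22 was highest in D4M (37.1 ± 3.7 CPM, SD, n = 5). H2-T24 was the exception of this class: its highest line was WT31 (2.03 ± 0.284 CPM), and neither HIM against LM (adjusted p = 0.055) nor D4M against HCmel12 (adjusted p = 0.068) passed in limma. Both passed without D4M replicate 1 (-0.47, adjusted p = 0.015, and 0.74, adjusted p = 0.014), and so did 1 or the other when each of several further libraries was left out. HIM against LM also passed with DESeq2 size factors in place of TMM (-0.41, adjusted p = 0.039 in limma). Of the H2-T22 sequence, 67.4% is shared with other genes, mainly H2-T10.

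Summed over the 9 genes, heavy chain expression was 686 ± 106 CPM in D4M (532 to 814), 155 ± 56.4 CPM in HCmel12 (115 to 248), 60.7 ± 6.14 CPM in RET, 53.4 ± 7.16 CPM in WT31 and 51.2 ± 5.3 CPM in B16F10 luc2. The ranges of the 3 HIM lines overlapped, while H2-K1 made up 20.9 ± 5.19% of the sum of TPM in WT31, 17.5 ± 5.72% in RET and 6.76 ± 1.9% in B16F10 luc2. In all, 8 of the 9 were lower in HIM-melanoma (39.9% of all genes), and 8 were higher in D4M than in HCmel12 (36.8%). Both counts are descriptions, since H2-Q6, H2-Q7 and H2-M3 passed the filter through LM lines only. H2-Q6, H2-M3 and H2-T23 did not pass it through HCmel12.

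B2m (chr2:122147686-122153083), the common light chain, was expressed at high levels in all lines and was again highest in D4M, followed by HCmel12. The D4M cultures were at 1686, 1781, 1505, 1610 and 1426 CPM and the HCmel12 cultures at 550, 597, 585, 777 and 639 CPM. WT31 had 421, 390, 440, 386 and 417 CPM, RET 284, 212, 189, 258 and 242 CPM and B16F10 luc2 205, 211, 237, 237 and 179 CPM. All HIM libraries lay below all LM libraries, and WT31 lay above RET and B16F10 luc2, which overlapped. The log2 fold change was -1.97 (SE 0.07, adjusted p = 2.3e-19) for HIM against LM and 1.53 (SE 0.10, adjusted p = 3.8e-13) for D4M against HCmel12. None of the 31-base sequences of B2m occurs in another gene. The sum of heavy chains relative to B2m (ratio of TPM) was 0.195 ± 0.0197 in D4M (0.167 to 0.212, n = 4) and 0.0559 ± 0.00561 in WT31 (0.051 to 0.0649), with B16F10 luc2 (0.0932 ± 0.00454), RET (0.107 ± 0.00815) and HCmel12 (0.101 ± 0.0228) between them. This ratio was lower in every WT31 library than in any other.

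The transporter genes placed RET, an HIM line, beside or above HCmel12. Tap1 (chr17:34187553-34197225), one arm of the TAP transporter, was at 19.7, 23.9, 21.7, 28 and 21.3 CPM in D4M and at 7.61, 5.79, 5.87, 7.4 and 5.77 CPM in RET. HCmel12 had 0.9, 0.694, 0.938, 3.21 and 1.18 CPM, B16F10 luc2 0.985, 0.699, 1.23, 1.27 and 0.748 CPM and WT31 1.57, 0.765, 0.97, 0.805 and 0.774 CPM. RET thus lay above every HCmel12 library, with a log2 fold change of 2.41 (SE 0.27, adjusted p = 1.1e-08). HCmel12, B16F10 luc2 and WT31 followed without significant differences between neighbours in this order (adjusted p of 0.51 and 0.82 in limma). D4M exceeded HCmel12 by 4.43 (SE 0.25, adjusted p = 8.9e-15), and the significant HIM against LM value of -1.62 (SE 0.18, adjusted p = 4.7e-09) combined these opposite pairs.

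Tap2 (chr17:34203527-34216321), the other arm of TAP, was at 8.72, 10.5, 8.97, 9.87 and 8.53 CPM in D4M, 1.89, 1.14, 1.11, 1.59 and 1.78 CPM in RET and 0.777, 1.35, 1.22, 2.43 and 1.69 CPM in HCmel12. B16F10 luc2 had 0.512, 0.329, 0.825, 0.575 and 0.394 CPM and WT31 0.484, 0.201, 0.242, 0.161 and 0.464 CPM. RET and HCmel12 overlapped (adjusted p = 0.91 in limma), while D4M exceeded HCmel12 by 2.89 (SE 0.21, adjusted p = 1.5e-12). The WT31 and B16F10 luc2 difference (adjusted p = 0.049) was lost with library size scaling (-0.78, adjusted p = 0.067) and when any of several libraries was left out, such as WT31 replicate 4 (-0.66, adjusted p = 0.14). Tapbp (chr17:33915899-33929292), which encodes tapasin, was at 66.9, 71.3, 54.5, 57.6 and 60.9 CPM in D4M and 25.4, 28, 26.2, 20.8 and 24.3 CPM in WT31. HCmel12 had 17.4, 18.2, 14.8, 28 and 18.9 CPM, RET 14.5, 14.7, 13.1, 12.7 and 12.8 CPM and B16F10 luc2 6.68, 7.06, 8.77, 9.72 and 6.69 CPM. WT31 was higher than HCmel12 here (0.34, SE 0.12, adjusted p = 0.016), although this was no longer significant without HCmel12 replicate 3 (0.25, adjusted p = 0.071 in limma). D4M against HCmel12 gave 1.88 (SE 0.11, adjusted p = 3.1e-14). Tapbpl, a tapasin relative that edits peptides, varied little (2.26 to 6.58 CPM over all libraries), was highest in RET and did not differ significantly between HIM and LM melanoma (-0.06, adjusted p = 0.55 in limma). Of the Tapbp sequence, 26.9% is shared, mainly with Gm19412, which lies over it in the annotation.

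Among the immunoproteasome subunits, Psmb8 (LMP7, chr17:34197721-34201454) and Psmb9 (LMP2, chr17:34181987-34187764) ranged from undetected to several CPM, while Psmb10 (MECL-1) was present in all lines. Psmb8 had 0 counts in all 5 WT31 libraries, and 1 count in each of 2 B16F10 luc2 libraries with 0 in the other 3. RET held 0.164, 0.157, 0.0822, 0.122 and 0.238 CPM, HCmel12 0.777, 0.776, 0.979, 2.1 and 0.95 CPM and D4M 7.31, 8.73, 6.82, 13.1 and 7.83 CPM. D4M was at least 72.9-fold higher than WT31, and HCmel12 at least 9.31-fold higher, with WT31 set at the floor of 3 counts per library. HIM and LM libraries did not overlap for Psmb8, which is a description, since this gene passed the filter through the LM lines only. D4M exceeded HCmel12 by 3.19 (SE 0.24, adjusted p = 3.8e-12 in limma). The floor covers counting error only.

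Psmb9 was at 2.63, 2.9, 2.22, 4.9 and 1.99 CPM in D4M, 0.827, 0.431, 0.456, 0.676 and 0.362 CPM in RET and 0.368, 0.327, 0.285, 1.31 and 0.309 CPM in HCmel12. WT31 had at most 1 count per library, and B16F10 luc2 at most 0.132 CPM. RET and HCmel12 overlapped (adjusted p = 0.64 in limma), and D4M lay above both, with a log2 fold change to HCmel12 of 2.82 (SE 0.37, adjusted p = 1.7e-07). The Psmb9 comparisons with HCmel12 are descriptions, since this gene passed the filter through RET and D4M only. The genes Tap1 and Psmb9, whose upstream windows overlap, were set side by side in RET and HCmel12: the log2 fold change of RET against HCmel12 was 2.41 (SE 0.27, adjusted p = 1.1e-08) for Tap1 and 0.25 (SE 0.45, adjusted p = 0.64) for Psmb9. The difference between these changes was not tested. Psmb10 was at 28.4, 28, 25, 23.9 and 29.8 CPM in HCmel12, 18.7, 19.4, 17.9, 17 and 18.8 CPM in RET and 15.2, 12.8, 13.5, 19 and 15.3 CPM in D4M. B16F10 luc2 had 14, 13.4, 14.7, 14.1 and 13.2 CPM and WT31 11.2, 10.8, 11.8, 11.5 and 13.1 CPM. HCmel12 was the highest line, D4M was lower than HCmel12 (-0.66, SE 0.08, adjusted p = 4.7e-08), and RET and D4M did not differ significantly with TMM scaling (adjusted p = 0.36) but did with library size alone (0.29, adjusted p = 0.0035 in limma).

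In an immunoproteasome, each of these subunits takes the place of a constitutive one: Psmb8 that of Psmb5, Psmb9 that of Psmb6 and Psmb10 that of Psmb7. The log2 ratio of Psmb8 to Psmb5 counts was -3.92, -3.66, -4.09, -3.05 and -3.59 in the D4M cultures and -7.01, -7.21, -6.83, -5.53 and -7.13 in HCmel12. RET had -9.50, -9.53, -10.16, -9.84 and -8.82, and WT31 and B16F10 luc2 were at -10.64 or below. D4M and HCmel12 differed by 3.08 (exact two-sided permutation test, 252 arrangements, p = 0.0079, the smallest they can give; adjusted p = 0.0099 over 30 tests). In TPM, Psmb8 made up 7 ± 1.9% of the sum of Psmb8 and Psmb5 in D4M (SD, n = 4), 0.94 ± 0.555% in HCmel12 (n = 5) and 0.102 ± 0.053% in RET. In HCmel12 the Psmb8 share was 1.92% in replicate 4 and 0.695 ± 0.104% without it (n = 4). Psmb9 made up 1.33 ± 0.676% of its pair in D4M, 0.263 ± 0.235% in HCmel12 and 0.219 ± 0.0651% in RET. The HCmel12 value rests on replicate 4 (0.68%), and without it the share was 0.159 ± 0.0382% (n = 4), below the RET mean. Psmb10 reached 23.4 ± 1.39% of its pair in HCmel12, 16.6 ± 1.61% in D4M, 16.4 ± 1.32% in RET, 13.9 ± 0.561% in WT31 and 12.8 ± 0.893% in B16F10 luc2. Thus the constitutive subunit prevailed in each pair and every line.

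Of the 30 tests of these ratios, 27 passed an adjusted p of 0.05 in the exact permutation test. Among the 27 is Psmb8 over Psmb5 in WT31 against B16F10 luc2 (-0.79, adjusted p = 0.035 in the exact test), which is no result about Psmb8: its counts were 0 in all 5 WT31 and 3 of the B16F10 luc2 libraries, where the ratio is the added 0.5 over Psmb5. Psmb9 over Psmb6 did not differ significantly between WT31 and B16F10 luc2 (-0.19, adjusted p = 0.75) or between RET and HCmel12 (-0.24, adjusted p = 0.77), and Psmb10 over Psmb7 not between WT31 and B16F10 luc2 (-0.07, adjusted p = 0.25), all by the exact test. The difference of Psmb10 over Psmb7 between RET and D4M (-0.35, adjusted p = 0.019 in the exact test) did not pass with TPM (-0.01, adjusted p = 0.99).

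**Figure D4:**
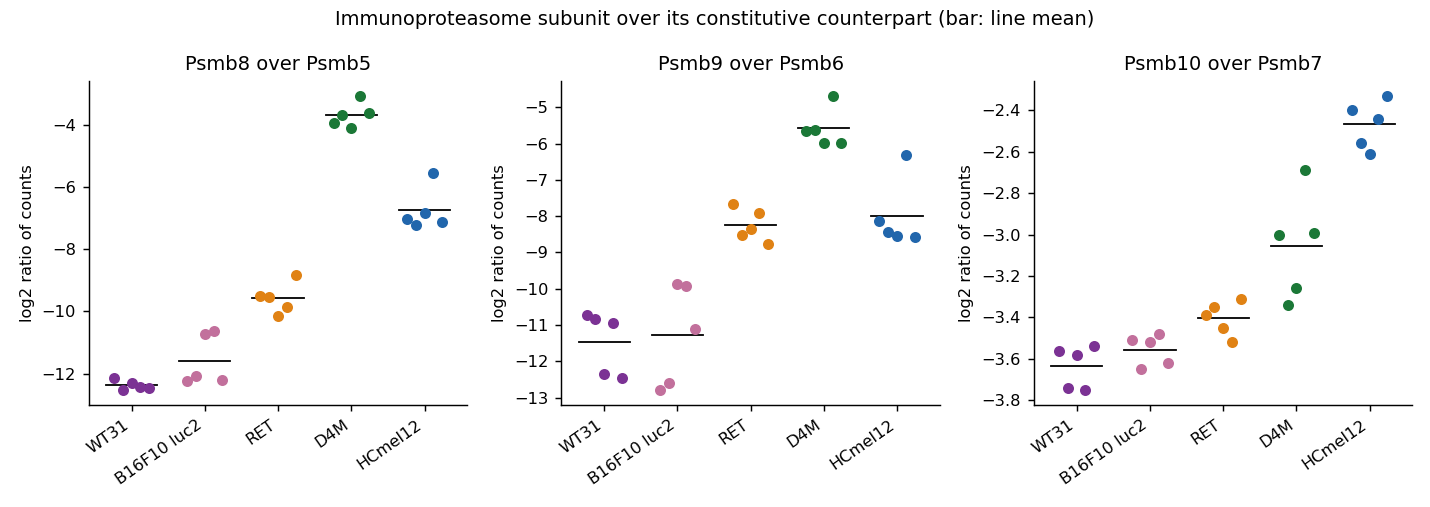
Log2 ratio of counts of each immunoproteasome subunit to its constitutive counterpart by library, with bars at line means; 0.5 was added to each count. D4M is highest for Psmb8 over Psmb5 and Psmb9 over Psmb6, and HCmel12 for Psmb10 over Psmb7.

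Psme1 and Psme2, the interferon-inducible subunits of the PA28 activator, were at 20 ± 1.83 and 14.3 ± 2.02 CPM in B16F10 luc2, their lowest line, and at 64.8 ± 8.41 and 55.9 ± 5.57 CPM in HCmel12, their highest (SD, n = 5). Both were lower in every HIM library than in any LM library, with HIM against LM log2 fold changes of -1.10 (SE 0.05, adjusted p = 6.2e-16) and -1.38 (SE 0.05, adjusted p = 3.3e-18). Unlike the heavy chains, D4M was not above HCmel12 for them. Psme1 was lower in D4M (-0.33, adjusted p = 0.00046) and Psme2 did not differ significantly with TMM scaling (-0.08, adjusted p = 0.35 in limma) but did with library size alone (-0.25, adjusted p = 0.0031). Psme3, the nuclear PA28 gamma subunit, was expressed highly in all lines (189 to 436 CPM over all libraries), peaked in B16F10 luc2 and was slightly higher in HIM-melanoma (0.27, SE 0.04, adjusted p = 1.9e-06). This value combined unlike pairs. B16F10 luc2 was higher than both LM lines and RET was higher than D4M only, whereas WT31 was lower than HCmel12 (-0.33, adjusted p = 7.3e-05 in limma). Of the Psme2 sequence, 33.5% is shared with Psme2b.

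Erap1 (chr13:74639568-74693201), which trims peptides in the endoplasmic reticulum, was at 48.8, 47.5, 36.2, 56 and 57.6 CPM in D4M and 35.4, 37.6, 36.6, 34.7 and 31.8 CPM in HCmel12. WT31 had 18.8, 20.9, 17.1, 18 and 15.5 CPM, RET 8.56, 8.82, 10.1, 8.91 and 8.6 CPM and B16F10 luc2 7.81, 9.17, 9.24, 9.62 and 8.8 CPM. No HIM library reached the lowest LM library, WT31 lay above the other HIM lines, and RET and B16F10 luc2 did not differ significantly (adjusted p = 0.87 in limma). The log2 fold change was -1.98 (SE 0.07, adjusted p = 6.5e-19) for HIM against LM and 0.64 (SE 0.09, adjusted p = 2.9e-07) for D4M against HCmel12.

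The chaperones of the loading complex were abundant and nearly even, and they also serve other glycoproteins. Calr ranged from 1531 to 2524 CPM over all libraries, Canx from 668 to 1204 CPM and Pdia3 from 861 to 1789 CPM. All 3 were significantly lower in HIM-melanoma, with log2 fold changes of -0.37, -0.26 and -0.58. The Canx value combined unlike pairs. WT31 was lower than both LM lines, and RET was lower than D4M but did not differ significantly from HCmel12 (adjusted p = 0.19 in limma). B16F10 luc2 was higher than HCmel12 (0.34, adjusted p = 4.7e-06) and did not differ significantly from D4M (-0.02, adjusted p = 0.7 in limma). The Pdia3 difference between D4M and HCmel12 (0.31, adjusted p = 0.0051) was not significant with scaling to library size alone (0.13, adjusted p = 0.2 in limma). Calr calls of WT31 and B16F10 luc2 against D4M or HCmel12 changed likewise with scaling or with single libraries left out.

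Nlrc5 (chr8:94434356-94527272), the transactivator of class I genes, had one of the widest ranges. It was at 15.3, 16.7, 17, 21.1 and 15.6 CPM in D4M and 6.18, 4.86, 5.83, 7 and 6.28 CPM in HCmel12. RET had 0.861, 0.744, 0.534, 0.693 and 0.554 CPM, B16F10 luc2 0.118, 0.0411, 0.0825, 0.0821 and 0.236 CPM and WT31 0.121, 0.0402, 0.0808, 0.121 and 0.116 CPM. Each LM library lay above each HIM library, and RET lay above the other HIM lines, which overlapped (adjusted p = 0.74 in limma). D4M exceeded HCmel12 by 1.68 (SE 0.11, adjusted p = 4.4e-13), and the HIM against LM value was -5.71 (SE 0.17, adjusted p = 2.5e-20). The HIM end of this value rests on 1 to 6 counts per library in WT31 and B16F10 luc2. As for Psmb8, D4M was highest, followed by HCmel12 and RET, and B16F10 luc2 and WT31 did not differ significantly (adjusted p = 0.35 for Psmb8 in limma).

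Class II genes were at or near 0. Ciita (chr16:10480059-10528418), the class II transactivator, had at most 2 counts in any of the 25 libraries. H2-Aa and H2-Ab1, the chains of I-A, had 0 counts in all D4M and HCmel12 libraries. In the other lines H2-Aa had at most 2 counts per library and H2-Ab1 at most 5, the latter in RET. H2-Eb1 had at most 3 counts. A count of 0 allows up to 3 counts, or 0.124 CPM in the shallowest library. Cd74 (chr18:60803848-60812652), the invariant chain, was at 0.398, 0.25, 0.335, 0.622 and 0.518 CPM in B16F10 luc2 and 0.0818, 0.247, 0.0408, 0.331 and 0.75 CPM in HCmel12. WT31 had 0.163, 0.202, 0.369, 0.123 and 0.273 CPM, RET 0.0415, 0.119, 0.124, 0.122 and 0.12 CPM and D4M 0.0413, 0.0404, 0, 0 and 0.0396 CPM. D4M had the lowest mean level of Cd74, which was not tested because it did not pass the filter.

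The 2 tested members of the class II pathway, which form the peptide exchange factor H2-DM, went in opposite directions. H2-DMa (chr17:34119541-34139101) was at 2.48, 2.5, 4.39, 2.75 and 2.1 CPM in D4M and 1.05, 1.26, 1.59, 1.29 and 1.33 CPM in WT31. HCmel12 had 1.07, 0.735, 0.815, 1.4 and 0.62 CPM, B16F10 luc2 0.83, 0.66, 1.03, 0.946 and 0.752 CPM and RET 0.369, 0.432, 0.329, 0.491 and 0.238 CPM. D4M was the highest and RET the lowest line, without overlap with the others. H2-DMb1 (chr17:34153072-34160230) showed the reverse and was at 2.38, 2.07, 1.77, 2.53 and 1.62 CPM in RET. B16F10 luc2 had 0.431, 0.605, 0.454, 0.123 and 0.63 CPM and WT31 0.0807, 0.121, 0.202, 0.121 and 0.155 CPM, while D4M and HCmel12 had at most 2 counts per library. H2-DMa was lower in HIM-melanoma (-1.18, SE 0.16, adjusted p = 1.6e-07) and H2-DMb1 had a log2 fold change of 3.29, a description, since it passed the filter through the HIM lines RET and B16F10 luc2 only. The H2-DMa value combined unlike pairs, since neither WT31 (0.48, adjusted p = 0.08) nor B16F10 luc2 (-0.07, adjusted p = 0.83) differed significantly from HCmel12 in limma, and WT31 was higher than HCmel12 without HCmel12 replicate 4 (0.64, adjusted p = 0.026). The H2-DMb1 value depends on the 0.5 added to the near-empty LM libraries, and D4M and HCmel12, both at the floor, give no fold. The Brd2 gene overlaps H2-DMa on the other strand, and 31.4% of the H2-DMb1 sequence is shared with H2-DMb2.

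Cd1d1 (chr3:86995834-86999441), which presents lipids to natural killer T cells, was at 4.3, 4.96, 7.1, 4.74 and 3.93 CPM in D4M and 3.68, 3.06, 1.55, 4.65 and 2.6 CPM in HCmel12. RET had 0.328, 0.391, 0.534, 0.285 and 0.238 CPM, WT31 0.202, 0.201, 0.242, 0.274 and 0.204 CPM and B16F10 luc2 0.236, 0.0858, 0.0412, 0.0821 and 0.157 CPM. Every HIM library was below every LM library, and D4M and HCmel12 overlapped while differing significantly (0.92, SE 0.20, adjusted p = 0.00025). HIM against LM gave -4.20, a description, since Cd1d1 passed the filter through the LM lines only.

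To compare genes within a line, TPM was used. In D4M, B2m was at 3389 ± 283 TPM (SD, n = 4), followed by Calr (1564 ± 234), Pdia3 (882 ± 118), Canx (469 ± 32.1), H2-D1 (336 ± 58) and H2-K1 (230 ± 41.9). In B16F10 luc2, Calr (1274 ± 77.8 TPM, n = 5) exceeded B2m (451 ± 43.3), and H2-D1 (26.3 ± 2.09) and H2-K1 (2.88 ± 1.03) were far below both. Calr exceeded B2m in TPM in every line but D4M on average.

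HCmel12 replicate 4 was the highest HCmel12 library in 18 of 28 members (31.5% of all genes) and the lowest in 5 (29.3%). It exceeded the mean of the other 4 cultures 12.3-fold for H2-T23, 4.07-fold for Psmb9, 3.75-fold for H2-Q7, 3.46-fold for Tap1, 3.15-fold for H2-Q6, 2.77-fold for H2-K1 and 2.41-fold for Psmb8. Chaperones went the other way, at 0.654 of that mean for Calr and 0.703 for Pdia3. Nlrc5 (1.21) and Erap1 (0.982) were near 1. In the same library Irf9 was at 22.6 CPM (8.73 to 10.9 in the other 4) and Stat2 at 23.9 CPM (14.6 to 19), whereas Irf1, at 20.8 CPM, was at the bottom of its line. Its fibroblast gene sum was 1.48 CPM (607 to 1183 in D4M), and its Spp1 level, which was 15056 to 17423 CPM in D4M, lay within the 32.7 to 61.6 CPM of HCmel12. Its melanocyte gene sum was 18032 CPM (12323 to 13481 in the other 4). Leaving it out changed no count of called members by more than 1.5 times, and H2-T24 lost its calls of HCmel12 against B16F10 luc2 (adjusted p = 0.053 in limma) and RET (adjusted p = 0.059). In D4M, replicate 4 was the highest in 15 of 28 members (14.7% of genes).

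**Figure D5:**
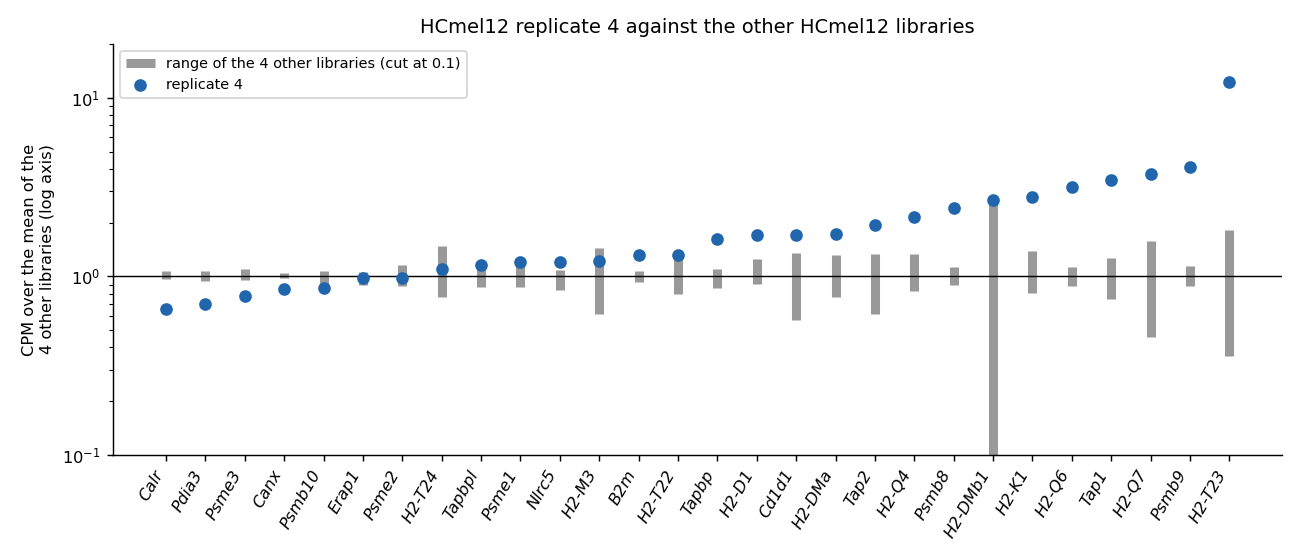
Level of each tested member in HCmel12 replicate 4 over the mean of the other 4 HCmel12 libraries (blue points, log axis); grey bars give the range of the other 4, cut at 0.1. H2-T23 stands highest at 12.3, and Calr lowest at 0.654.

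Other genes of the pathway were taken from lists. Of 25 regulators and interferon gamma pathway genes, 13 were lower (39.9% of all genes) and 6 higher (39.2%) in HIM-melanoma (median log2 fold change -0.16), and 14 were higher (36.8%) and 6 lower (35.7%) in D4M than in HCmel12 (0.30). The widest ranges were those of Irf8 and Socs1. Irf8, an interferon regulatory factor best known from myeloid cells, was highest in WT31 (8.86 ± 2.77 CPM), followed by D4M (1.61 ± 0.768 CPM), and did not differ significantly between HIM and LM melanoma (-0.06, adjusted p = 0.91 in limma). Socs1, an inhibitor of interferon signalling, was at 14.2 ± 2.69 CPM in D4M and at most 1.74 CPM in any library of the other lines, with D4M against HCmel12 at 3.72 (SE 0.20, adjusted p = 4.3e-15). In 19 genes of peptide supply and folding, 9 were lower and 4 higher in HIM-melanoma (median -0.05), against the same 39.9% and 39.2% of all genes. Here Hsp90aa1, a cytosolic chaperone, was higher in B16F10 luc2 (2905 ± 122 CPM) than in WT31 (938 ± 88.3 CPM), and Lnpep, an endosomal aminopeptidase, was highest in D4M (68.7 ± 8.06 CPM).

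Of 8 tested class II pathway proteases and ligases, 4 were lower (39.9% of all genes) and 2 higher (39.2%) in HIM-melanoma (median -0.05). Ctsl, the protease cathepsin L, was at 649 ± 39 CPM in D4M and 40.7 ± 1.18 CPM in B16F10 luc2. Ifi30, the lysosomal thiol reductase GILT, was highest in HCmel12 (91.6 ± 9.86 CPM) and lowest in D4M (19.2 ± 1.87 CPM), with D4M against HCmel12 at -2.07 (SE 0.07, adjusted p = 7e-19). Among 13 other MHC genes only H2-T10 and Mr1 passed the filter. H2-T10 was highest in D4M (1.05 ± 0.16 CPM), and Mr1, which presents vitamin metabolites to MAIT cells, in WT31 (29.6 ± 4.14 CPM), with no significant difference of Mr1 between HIM and LM melanoma (0.03, adjusted p = 0.78 in limma).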

How the data were processed

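Total RNA of 25 cultures was sequenced. Per the labels and the submitters' processing notes, the authors trimmed reads with Trim Galore 0.6.4 and quantified them with kallisto 0.4.6 against GRCm38.p6. The study's methods name another version of kallisto. They deposited estimated counts per gene, which are not whole for 24.5 to 26.6% of values, and TPM. TPM of D4M replicate 1 was not used here. kallisto divides reads shared by similar transcripts, which bears on the class I heavy chains. Symbols came from GENCODE vM21 (55144 of 55385 identifiers matched without their version, 54487 with it). Counts were filtered by expression with the line as group (15247 genes kept) and then TMM-scaled. They were transformed with voom and tested with limma 3.58.1 in R 4.3.3 (edgeR 4.0.16), with 1 mean per line and Benjamini-Hochberg adjustment per comparison at 0.05. CPM in the text used library totals. Errors are SD unless named SE. Subunit ratios, log2 of counts with 0.5 added, were compared by exact two-sided permutation tests with adjustment over 30 tests. Between-gene sharing was counted in 31-base sequences of GENCODE transcripts. Alternatives included edgeR and DESeq2 1.42.0 on rounded counts, other scalings and filters, TPM with a pseudocount of 1 or 0.1, a replicate block and leaving out each library. Tested on simulated WT31 and D4M counts (14608 genes), voom recovered 98 of 100 genes changed by 1 and 100 of 100 by 2 on the log2 scale, with 6 false calls. The simulation gave all genes the same spread beyond counting error. It changed few genes, none of them near 0 counts, and left the rest equal between lines. It therefore does not cover low counts or lines that differ in most genes. The members, lists and motifs were chosen with earlier results of these data known. Values by library were given for 13 preselected members and the 8 others with the widest range of line means. Some genes of the lists are not reported here. The labels give replicates as biological, but not how the cultures were separated. Python 3.11.15, NumPy 2.4.6, pandas 2.3.3, SciPy 1.17.1 and Matplotlib 3.10.9 were used.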

Additional observations from a re-analysis of the deposited data

Results flagged for a closer look

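In 13 of 160 groups of 5 libraries, the highest or lowest library lay apart from the rest by more than 0.71 of the group's range. A rate of 5% would give about 8 for independent groups of normally distributed values. The subunit ratios reuse counts of other groups, and several groups hold counts near 0, so 13 and 8 are not a test. Of the 13, 8 concerned HCmel12 replicate 4. It was at 0.592 CPM for H2-Q6 (next library 0.211), 4.28 CPM for H2-T23 (0.634), 3.21 CPM for Tap1 (1.18), 2.1 CPM for Psmb8 (0.979) and 1.31 CPM for Psmb9 (0.368). Its Calr level of 1546 CPM was the lowest of the line, the next being 2283 CPM. Its log2 ratio of Psmb8 to Psmb5 was -5.53 (next -6.83) and that of Psmb9 to Psmb6 was -6.3 (next -8.14). The other 5 were Tap1 in WT31 replicate 1 (1.57 CPM, next 0.97), Erap1 in RET replicate 3 (10.1 CPM, next 8.91), Canx in WT31 replicate 5 (737 CPM, next 684), H2-DMa in D4M replicate 3 (4.39 CPM, next 2.75) and the log2 ratio of Psmb9 to Psmb6 in D4M replicate 4 (-4.68, next -5.62).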

How the results depend on the processing

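Leaving out each library kept all 525 counts of called members within 1.5 times. Under other settings 201 of 231 did. When only genes with at least 10 counts in every library were kept, 15 members remained, and the calls were 12 (WT31 and RET), 14 (WT31 and D4M, 14 lower), 12 (WT31 and HCmel12, 11 lower), 11 (B16F10 luc2 and RET), 14 (B16F10 luc2 and D4M, 13 lower), 13 (B16F10 luc2 and HCmel12, 11 lower), 13 (RET and D4M, 12 lower), 13 (RET and HCmel12, 11 lower), 13 (D4M and HCmel12, 10 higher) and 14 (HIM and LM, 13 lower and 1 higher); fewer genes were tested here. A 2-fold limit left 6 (WT31 and B16F10 luc2), 10 (WT31 and RET), 10 (B16F10 luc2 and RET) and 14 (RET and HCmel12, 12 lower), 0 members lower in D4M than in HCmel12 and 1 higher in HIM-melanoma, and no filter gave 4 higher in HIM-melanoma. With line means as units, 0 members were called in limma, in total, higher or lower (13 at an unadjusted p under 0.05). Scaling to library size alone moved the median of all genes by up to 0.22 (WT31 and D4M) and -0.17 (D4M and HCmel12), and the share of higher calls from 49.3% to 62.4% and from 50.8% to 39.6%, and gave -0.04 for H2-DMb1 in D4M against HCmel12, both lines being at the floor (-0.18 to 0.46 with single libraries left out). Without an added value, Psmb8 over Psmb5 of B16F10 luc2 was -1.50 against RET, -7.61 against D4M and -4.50 against HCmel12 (adjusted p = 0.11 each in the exact test, with the 2 B16F10 luc2 libraries that had a count), and WT31 had no value. Psmb9 over Psmb6 was 0.14 for WT31 against B16F10 luc2 with 5 added to counts, and 0.00 for RET against HCmel12 with TPM; Psmb10 over Psmb7 with TPM was 0.14 for WT31 against B16F10 luc2 and -0.01 for RET against D4M. With CPM of library totals, chosen after seeing the data, 1 member was above all other lines in WT31, 2 were below in RET and 1 was below in D4M. The cause of these changes was not tested. With single libraries left out, Psmb8 over Psmb5 in WT31 against B16F10 luc2 ranged from -0.96 to -0.55, Psmb9 over Psmb6 from -0.57 to 0.16 in WT31 against B16F10 luc2 and from -0.39 to 0.18 in RET against HCmel12, and Psmb10 over Psmb7 in B16F10 luc2 against RET from -0.18 to -0.13. Replicate numbers did not pair the cultures: 1 of 50 same-numbered pairs had a correlation over 0.1 (median -0.00), and 6 of 25 libraries correlated best with their own number. A replicate block gave 26 called members for HIM against LM, 24 for D4M against HCmel12, 19 for WT31 against B16F10 luc2 and 21 for B16F10 luc2 against RET. Depth limits Psmb8, Psmb9, H2-Q6, H2-Q7, H2-M3 and Nlrc5 in the HIM lines, where values rest on few counts.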
